A study of Homo sapiens with 38 samples.

Results

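The Hippo pathway was followed through 10 genes picked by name: NF2, STK3, STK4, SAV1, LATS1 and LATS2 of the kinase cascade, the co-activators YAP1 and WWTR1, and the DNA-binding factors TEAD1 and TEAD4. In the CRISPR/Cas9 screen of Hep3B cells they were targeted by 39 of 66890 guides, and they were 10 of the 18029 genes in that table. In the screen of SNU-398 cells they were targeted by 38 of 66582 guides and were 10 of 18036 genes. In the RNA-seq of PSTK-KO and control Hep3B cells they were 10 of 58735 gene rows.

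The Hippo pathway restrains organ size and cell growth. NF2 (also called merlin) recruits the cascade to the cell membrane, where the kinases STK3 and STK4 (MST2 and MST1), with the adaptor SAV1, activate the kinases LATS1 and LATS2. These phosphorylate YAP1 and its paralog WWTR1 (TAZ), which keeps both out of the nucleus. When the cascade is silent, YAP1 and WWTR1 enter the nucleus and switch on growth genes through TEAD factors such as TEAD1 and TEAD4. In mouse liver, loss of the cascade leads to overgrowth and tumors, and YAP1 is often active in human hepatocellular carcinoma (HCC).

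Hep3B and SNU-398 are human HCC lines, and both carried Cas9 and a pooled genome-wide guide library. In each line, guides were counted after 14 days with Sorafenib, Regorafenib, Lenvatinib, Erastin, Abemaciclib or Palbociclib, each at its 20% inhibitory concentration, after 14 days with vehicle, and at baseline before treatment (T0), with 2 libraries per group. The libraries labelled T1 were taken as the vehicle group, since the methods name no other untreated group at the end of the screen. RNA was sequenced from 3 PSTK-KO libraries (genotype PSTK-/-) and 3 control libraries (wild type) of Hep3B, where a dual-guide vector was used to delete PSTK, a kinase of selenocysteine synthesis, in a transduced and selected pool. Sorafenib, Regorafenib and Lenvatinib inhibit receptor kinases, Abemaciclib and Palbociclib block the cell cycle kinases CDK4 and CDK6. Erastin blocks cystine import and induces ferroptosis.

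Total guide counts were 11198022 to 46376708 per library in Hep3B and 11558112 to 46043970 in SNU-398, and total gene counts in the RNA-seq were 15404153 to 16851558. Erastin replicate 2 of SNU-398 stood apart. Its change from T0 correlated with the mean change of Hep3B at r = 0.549 over guides, against -0.0563 to 0.0587 for the other SNU-398 libraries, and it was left out of the SNU-398 values unless stated. In the screens, 77.2% to 97.4% of the guide counts in a library were even numbers, as they would be if each read pair were counted as 2, which was not tested. Counts and depths are given as deposited. The methods call the RNA replicates biological. For the screens no source says that the libraries of a group came from separate cultures, so edgeR p-values there measure spread that may be technical. PSTK itself had 63, 71 and 87 counts in PSTK-KO libraries, against 76, 84 and 64 in control libraries, and did not pass the test in edgeR (adjusted p = 0.84). Gene counts do not show which stretch of PSTK was read, so they do not check the genotype labels. Of 9 hepatocyte markers, 7 were too low to test in the RNA-seq, TTR was at 0 in all 6 libraries, AFP had 1, 3 and 0 counts in PSTK-KO against 0, 0 and 0 in control, and the biliary keratin KRT7 stood at 128, 125 and 123 FPKM against 114, 103 and 112. Of the 5 biliary markers looked at, KRT7 among them, 2 were too low to test, 2 were higher in PSTK-KO and 1 did not pass. Of all genes tested, 15.6% were higher and 17.2% lower. Hep3B is known to make AFP and albumin, so the RNA libraries went against the marker check of their label. They are called Hep3B as labelled, and their identity was not tested.

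TEAD factors bind the sequence GGAATG, and CTGF and ANKRD1 are textbook targets of YAP1 and TEAD. The 250 bases upstream of the transcription start are shown for those target genes, which moved in opposite directions in PSTK-KO cells, and for YAP1, the one member whose window held the motif. Sequences are from RefSeq on GRCh38.p14, 5′ to 3′ on the strand of the gene, with the motif in capitals.
CTGF (chr6:131951373-131951622, minus strand): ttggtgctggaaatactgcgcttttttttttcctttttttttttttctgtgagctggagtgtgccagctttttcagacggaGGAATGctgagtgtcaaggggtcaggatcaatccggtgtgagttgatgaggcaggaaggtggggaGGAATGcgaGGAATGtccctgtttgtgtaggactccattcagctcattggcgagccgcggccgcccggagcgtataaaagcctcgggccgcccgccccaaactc
ANKRD1 (chr10:90921088-90921337, minus strand): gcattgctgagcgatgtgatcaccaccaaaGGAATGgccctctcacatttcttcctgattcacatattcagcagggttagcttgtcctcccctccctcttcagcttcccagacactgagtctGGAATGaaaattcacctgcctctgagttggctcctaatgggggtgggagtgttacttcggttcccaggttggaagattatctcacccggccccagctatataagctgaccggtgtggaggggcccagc
YAP1 (chr11:102110197-102110446, plus strand): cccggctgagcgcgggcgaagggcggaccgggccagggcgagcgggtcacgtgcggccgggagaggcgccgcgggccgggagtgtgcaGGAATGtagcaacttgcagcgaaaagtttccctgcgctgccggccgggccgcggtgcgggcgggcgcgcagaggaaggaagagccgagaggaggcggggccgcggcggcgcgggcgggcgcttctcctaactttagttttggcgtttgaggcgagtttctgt

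In CTGF the motif began 169, 104 and 95 bases before the start, in ANKRD1 220 and 128 bases before it, and in YAP1 162 bases before it. The letters were searched as GGAATG and, for the other strand, as CATTCC. Of all 35116 windows of this length, 11.9% held the motif at least once, 0.94% at least 2 times and 0.0826% at least 3 times. Of the 10 members, 7 had a window and 1 of these held the motif. Of the 22 genes in a list of YAP and TAZ targets, 16 had a window and 8 of these held it in at least 1 window, where 14.3% of all 27305 genes did. Of the target genes with a window, 2 of 7 that were higher in PSTK-KO RNA held it, as did 4 of 6 that were lower and 2 of 3 that did not pass the test. A match describes the letters in the window and is not a measured binding site.

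Guide depth set how much each gene could show. A mean vehicle count of at least 30 was reached by 20 of the 39 guides in Hep3B and by 19 of the 38 in SNU-398, and 10 and 8 guides had no count in either vehicle library of those lines. WWTR1 and LATS1 had no guide at that depth in either line, and NF2 rested on guide 3, which held 99.5% of the NF2 count in SNU-398 vehicle cells and 99.8% in Hep3B vehicle cells. TEAD4 had 4 of 4 guides at that depth in Hep3B and 3 of 4 in SNU-398, and LATS2 had 3 of 4 in Hep3B and 4 of 4 in SNU-398. Guides are numbered by their position along the chromosome. Guides 2 and 3 of TEAD1 lie 1 base apart, so they report on nearly the same cut. Guide sequences are not printed.

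To ask which knockouts were lost or gained under an inhibitor, NormZ was computed for every gene after the steps of DrugZ. It sums scores over guides and libraries, taken as observations, and is standardised over all genes. Its p-value is the tail of a normal distribution and measures no spread between libraries or cultures. A gene with NormZ below 0 is a resister, whose knockout left fewer guides under the inhibitor than under vehicle, and a gene above 0 is a sensitizer. At a one-sided p under 0.01, YAP1 was a resister in the Regorafenib and the Palbociclib screens of Hep3B, TEAD4 was one in the Erastin screen of Hep3B, and TEAD1 was one in the Erastin screen of SNU-398. These were 3 of 60 gene and inhibitor pairs in Hep3B, where 1.77% of all 108174 pairs were called below 0, and 1 of 60 in SNU-398, where 1.6% of 108216 were. No member was called as a sensitizer, where 0.827% of all pairs in Hep3B and 0.851% in SNU-398 were. The 10 members were otherwise spread to both sides of 0, with a median NormZ of -0.20 over the 60 pairs in Hep3B and 0.16 in SNU-398.

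**Figure D1:**
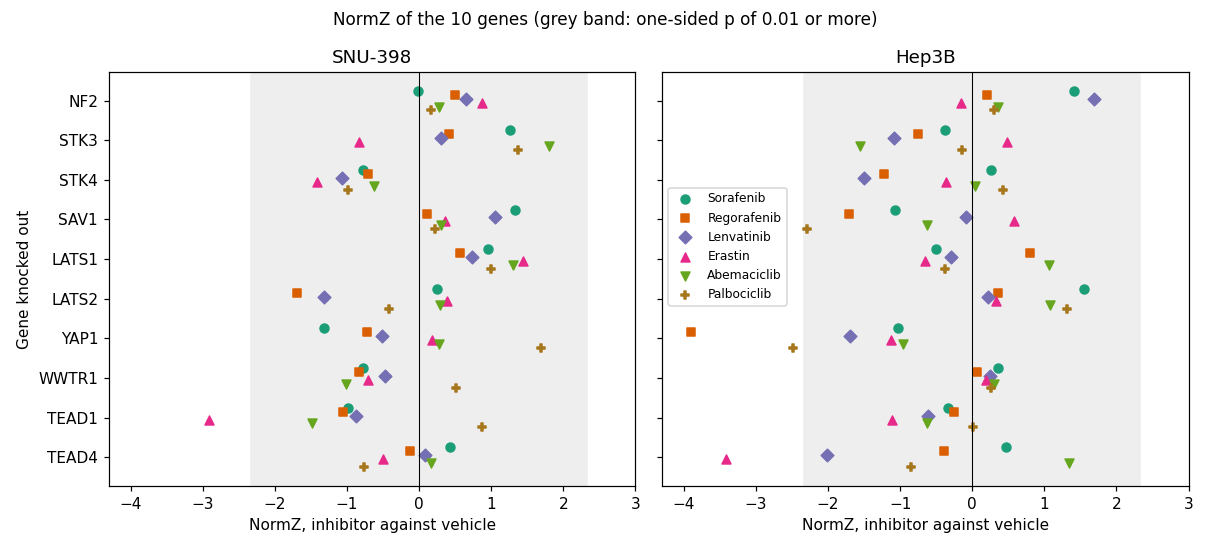
NormZ (x axis, no unit) of the 10 genes knocked out (y axis) for SNU-398 (left) and Hep3B (right), with a symbol per inhibitor. Of the symbols, 4 lie left of the grey band of one-sided p of 0.01 or more: YAP1 at -3.89 and -2.49 and TEAD4 at -3.41 in Hep3B, and TEAD1 at -2.91 in SNU-398.

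YAP1, the main transcriptional output of the pathway, had the lowest NormZ of the members, at -3.89 under Regorafenib in Hep3B (adjusted p = 0.0405 over all genes, rank 22 of 18029). Guide 2 of YAP1 stood at 1.74 and 1.47 CPM (counts scaled to a common library total) under Regorafenib, against 9.94 and 10.6 CPM under vehicle. Guide 3, the most abundant, stood at 23.0 and 22.8 CPM against 35.0 and 45 CPM. Guides 1 and 4 had no count under Regorafenib, against 1.14 and 1.98 CPM for guide 1 and 0.163 and 0.331 CPM for guide 4 under vehicle. All 4 guides were thus lower in both Regorafenib libraries than in both vehicle libraries. All 4 passed edgeR's quasi-likelihood test guide by guide (highest adjusted p = 0.0146), where 31.1% of all guides were lower. These are the counts that gave the NormZ, so the test is no separate support, nor is it for TEAD4 and TEAD1 below. A mean vehicle count of at least 30 was reached by 2 of the 4 guides. Of control guides with no human target, 53.6% to 73.8% passed in either direction, depending on the Hep3B screen. At T0, guide 2 stood at 4.49 and 4.6 CPM, below vehicle, and guide 3 at 49.1 and 51.8 CPM, above vehicle. Set against T0 in place of vehicle, the NormZ of YAP1 under Regorafenib was -1.82 and did not pass.

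Under Palbociclib in Hep3B the NormZ of YAP1 was -2.49 (adjusted p = 0.444, rank 263). Guide 2 stood at 2.85 and 3.04 CPM and guide 3 at 19.0 and 21.3 CPM under Palbociclib, both lower than under vehicle in edgeR, where 33.9% of all guides were lower, whereas guide 4 stood at 0.528 and 0.714 CPM and did not pass. The call did not survive a restriction to guides with a mean vehicle count of at least 30 (NormZ -2.01) or leaving out the libraries numbered 2 (NormZ -2.04), and against T0 the NormZ was -0.95. YAP1 lay below 0 in 6 of 6 screens of Hep3B, from -3.89 to -0.96, and in 3 of 6 of SNU-398, from -1.32 to 1.69. The 6 screens of a line share the same vehicle libraries, so they are not 6 independent results. The guides did not move as a block: under Sorafenib in Hep3B, guide 2 of YAP1 stood at 18.7 and 20.1 CPM, above vehicle, while guide 3 stood at 14.8 and 20.5 CPM, below vehicle, and both passed in edgeR. Under Regorafenib in SNU-398, YAP1 guide 3 stood at 52.7 and 60.9 CPM, against 52.8 and 55.4 CPM under vehicle, and NormZ was -0.72.

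TEAD4, a DNA-binding partner of YAP1, had a NormZ of -3.41 under Erastin in Hep3B (adjusted p = 0.17, rank 34). Guide 2 stood at 0.535 and 1.42 CPM under Erastin, against 7.98 and 7.77 CPM under vehicle and 0.733 and 0.511 CPM at T0. Guide 3 stood at 17.1 and 18.2 CPM under Erastin, against 33.9 and 42.6 CPM under vehicle and 24.0 and 28.9 CPM at T0. Guide 4 stood at 1.87 and 4.40 CPM, against 8.23 and 11.1 CPM under vehicle and 11.4 and 9.72 CPM at T0. These 3 guides were lower under Erastin than under vehicle in edgeR, where 34.3% of all guides were, and guide 1, at 19.7 and 21.7 CPM against 23.8 and 24.1 CPM, did not pass (adjusted p = 0.761). TEAD4 was also the member whose vehicle libraries stood farthest from T0, with a NormZ of 3.06 for vehicle against T0 (adjusted p = 0.588), past the threshold that 1.2% of all genes passed above 0. Set against T0, its NormZ under Erastin was -0.09, while it was 3.14 under Abemaciclib and 2.57 under Sorafenib.

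TEAD1 had a NormZ of -2.91 under Erastin in SNU-398 (adjusted p = 0.298, rank 108 of 18036), which rested on a single pair of libraries. Guide 4 stood at 0.880 CPM under Erastin, against 4.19 and 5.71 CPM under vehicle and 1.39 and 1.25 CPM at T0. Guide 2 stood at 11.6 CPM against 19.5 and 15.7 CPM, and guide 3, next to it, at 3.16 CPM against 6.96 and 5.54 CPM. Guide 1 had no count, against 0.819 and 0.519 CPM. All 4 guides were lower in edgeR (highest adjusted p = 0.00353), where 24% of all guides were, with a single Erastin library taken to vary like the other groups. With the library that stood apart included, the NormZ was -2.68 and still passed, restricted to guides at the depth of 30 vehicle counts it was -2.11 and did not, and against T0 it was -1.36.

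**Figure D2:**
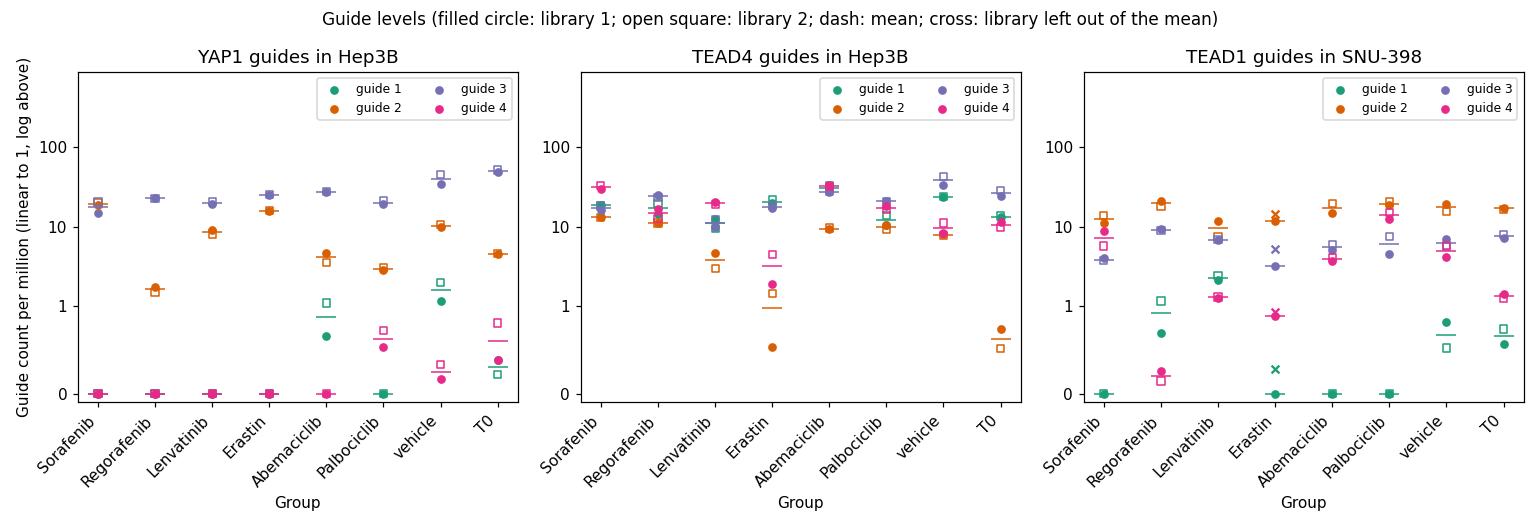
Guide CPM (y axis, linear to 1 and log above) of YAP1 and TEAD4 in Hep3B and TEAD1 in SNU-398 by group (x axis: the inhibitors, then vehicle and T0), with circles for library 1, open squares for library 2, dashes for means and crosses for SNU-398 Erastin replicate 2. YAP1 guide 2 lies at 1.74 and 1.47 CPM under Regorafenib against 9.94 and 10.6 CPM under vehicle, and TEAD4 guide 2 at 0.535 and 1.42 CPM under Erastin against 7.98 and 7.77 CPM.

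Of the other members, SAV1, the adaptor of STK3 and STK4, came nearest to the threshold in Hep3B, with a NormZ of -2.29 under Palbociclib. Its guide 3 stood at 1.27 and 0.714 CPM under Palbociclib, against 10.7 and 10.7 CPM under vehicle, and guide 1 at 8.76 and 8.57 CPM against 15.1 and 11.6 CPM. TEAD4 followed at -2.02 under Lenvatinib in Hep3B. Farthest above 0 was STK3, at 1.80 under Abemaciclib in SNU-398, with -1.56 in Hep3B. The kinases LATS1 and LATS2 and the scaffold NF2 lay between -1.70 and 1.69 in all 12 screens. LATS1 and SAV1 lay above 0 in 6 of 6 screens of SNU-398 and STK4 below 0 in 6 of 6, while LATS2 lay above 0 in 6 of 6 screens of Hep3B. Those screens share their vehicle libraries, and LATS1 rests on guides with almost no counts. WWTR1 could not be read in Hep3B: its NormZ lay between 0.06 and 0.35, although its guides had no count in any Sorafenib, Regorafenib, Lenvatinib or Abemaciclib library, against 0.163 and 0.496 CPM under vehicle, and its sum was called lower in those 4 screens.

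The difference between the lines was tested for the 60 pairs of gene and inhibitor, as the difference of the NormZ values, and none passed after adjustment over the 60. That difference was read against a normal distribution, as for independent standard normal values, with no spread between libraries in it. The nearest was YAP1 under Palbociclib, with a NormZ of 1.69 in SNU-398 and -2.49 in Hep3B (difference 4.18, adjusted p = 0.187). YAP1 under Regorafenib had -0.72 in SNU-398 and -3.89 in Hep3B (difference 3.17, adjusted p = 0.497), and TEAD4 under Erastin had -0.50 in SNU-398 and -3.41 in Hep3B (difference 2.92, adjusted p = 0.589). The resister calls in Hep3B were therefore not shown to be absent from SNU-398.

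Guide by guide, edgeR called many changes, and about as many among control guides that have no target in the human genome. In Hep3B, 108 of 174 tests of a member guide under an inhibitor passed (39 higher and 69 lower than vehicle), or 62.1%, where 62.2% of all guide tests and 63.1% of control guide tests passed. In SNU-398, 92 of 186 passed (41 higher, 51 lower), or 49.5%, where 43.2% of all guide tests and 41.1% of control guide tests did. Inhibitor groups thus differed from vehicle at guides with no target as well, and the 2 libraries of a group lay much closer to each other. On counts divided by 2, since most counts were even, the chi-square per guide was 1.26 to 1.89 between the 2 libraries of a group, outside the SNU-398 Erastin pair, and 5.19 to 45.1 between inhibitor or T0 and vehicle. At control guides the latter was 3.75 to 50.3. It was computed from the first libraries, which were deeper than the second, so the ranges within and between groups are not at equal depth. Where a member had at least 2 called guides in a screen, they pointed both ways in 19 of 34 cases in Hep3B and in 16 of 25 in SNU-398, where the called guides of all genes did so in 56% of 52348 cases in Hep3B and in 56.4% of 45195 in SNU-398. STK4 is an example: under Abemaciclib in Hep3B, guide 1 stood at 58.7 and 57.5 CPM against 27.0 and 27.8 CPM under vehicle, and guide 2 at 0.741 and 1.55 CPM against 11.7 and 14.6 CPM.

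Summed over guides, 44 of 60 gene tests passed in Hep3B (15 higher, 29 lower than vehicle), where 70.2% of all gene tests did, and 28 of 60 passed in SNU-398 (14 higher, 14 lower), where 48.7% did. YAP1 was lower under all 6 inhibitors in Hep3B in these sums, with log2 fold changes from -1.05 under Palbociclib to -0.24 under Erastin. Of all genes, 33.2% (Regorafenib) to 41.6% (Sorafenib) were lower in a screen of Hep3B. The 6 screens share their vehicle libraries, and NormZ called YAP1 in 2 of them. In SNU-398 the sum of YAP1 was lower under Sorafenib (-0.58), higher under Palbociclib (0.41), Lenvatinib (0.30) and Abemaciclib (0.23), and did not pass under Erastin and Regorafenib. A sum follows its most abundant guide, which for YAP1 was guide 3, with 88.2% of the vehicle level in SNU-398 and 76.8% in Hep3B. The sum of NF2, nearly all guide 3, was higher under Lenvatinib (1.26) and Sorafenib (1.06) in Hep3B, where that guide stood at 96.6 and 97.9 CPM under Lenvatinib and 82.2 and 78.3 CPM under Sorafenib, against 42.8 and 46.5 CPM under vehicle. NF2 had NormZ values of 1.69 and 1.42 in those screens.

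Genes around the pathway were read from the same screens. Of 17 upstream activators of the cascade, 6 of 102 gene and inhibitor pairs were resisters and 3 were sensitizers in Hep3B. Of all pairs in Hep3B, 1.77% were resisters and 0.827% sensitizers. In SNU-398, 1 and 0 of 102 were, where 1.6% and 0.851% of all pairs were. RASSF1, a scaffold that binds STK3 and STK4, gave 3 of the resister calls in Hep3B, with a NormZ of -3.17 under Lenvatinib, -3.43 under Erastin and -3.55 under Abemaciclib, and is named after its values were seen. Those 3 screens share their vehicle libraries, and guide values of RASSF1 are not given here. Of 22 targets of YAP and TAZ, no pair was a resister and 1 of 132 a sensitizer in Hep3B, against the shares of all pairs given above, and 1 and 2 of 132 were in SNU-398. Inhibitors of the cascade gave 0 resisters and 1 sensitizer of 66 pairs in Hep3B and 1 of each in SNU-398, and other partners of YAP, TAZ and TEAD gave 1 sensitizer of 54 pairs in SNU-398 and no call in Hep3B. The same shares of all pairs stand beside these counts.

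Growth without an inhibitor was read from vehicle against T0. In Hep3B, 7 of the 10 members passed in sums over guides, where 62.6% of all genes tested did (29.1% higher and 33.5% lower). The kinases STK4 and STK3 were higher after 14 days, by 0.62 ± 0.08 and 0.61 ± 0.12 (log2 fold change ± SE), as were LATS2 (0.54 ± 0.09), NF2 (0.51 ± 0.08) and TEAD4 (0.65 ± 0.06), with an adjusted p of at most 1.1e-06 in edgeR. NormZ, which sums scaled scores of guides and not their counts, was 1.39 for STK4, 1.16 for STK3 and 3.06 for TEAD4 in the same comparison. For LATS2 it was -0.14 and for NF2 -0.68, the other direction from their sums. SAV1 was lower (-0.51 ± 0.11, adjusted p = 3.4e-05), and so was WWTR1, whose guides together stood at 0.163 and 0.496 CPM under vehicle against 1.81 and 1.46 CPM at T0 (adjusted p = 0.00194). WWTR1 lost the call in DESeq2 and when replicate 1 of vehicle or of T0 was left out (adjusted p = 0.694, 0.129 and 0.111). YAP1 did not pass (-0.11 ± 0.08, adjusted p = 0.271) but did without replicate 2 of vehicle (-0.26, adjusted p = 0.0256), and LATS1 and TEAD1 did not pass. In SNU-398, 1 of 10 passed, where 39.3% of all genes did (19.2% higher and 20% lower): LATS1 was lower, by a log2 fold change of -1.81 ± 0.38 (adjusted p = 0.000123), on sums of 0.546 and 1.90 CPM under vehicle against 4.39 and 3.16 CPM at T0, and lost the call without replicate 1 of vehicle (adjusted p = 0.084).

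The guides behind these sums moved unequally. NF2 guide 3 stood at 42.8 and 46.5 CPM in vehicle libraries of Hep3B, against 28.1 and 28.8 CPM at T0, and NF2 guide 2 had no count under vehicle, against 1.77 and 2.48 CPM at T0. LATS2 guide 3 stood at 27.4 and 29.9 CPM against 14.3 and 14.7 CPM, while LATS2 guide 4 stood at 0 and 0.165 CPM against 2.46 and 3.07 CPM. STK4 guides 1, 2 and 3 were all higher, with guide 2 at 11.7 and 14.6 CPM against 5.35 and 5.19 CPM. Of the 29 member guides tested in Hep3B, 15 were higher and 9 lower in vehicle than at T0, together 24, where 63.1% of all guides (26.3% higher and 36.8% lower) and 54.8% of control guides passed. In SNU-398, 4 of 31 were higher and 6 lower, where 37.3% of all guides passed (15.3% higher and 22% lower), as did 58 of 116 control guides. NF2 guide 3 there stood at 37.3 and 36.8 CPM in vehicle libraries, against 40.3 and 38.4 CPM at T0.

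The change after 14 days differed between the lines for 5 of the 10 members, where it did for 52.6% of the 18005 genes tested. The count thus does not set the members apart from other genes. STK4 changed by -0.14 in SNU-398 and by 0.63 in Hep3B, a difference of -0.77 ± 0.12 (edgeR, adjusted p = 7.2e-08). TEAD4 changed by -0.08 in SNU-398 and 0.65 in Hep3B (difference -0.73 ± 0.09, adjusted p = 1.3e-10), NF2 by -0.10 and 0.51 in the same order of lines (difference -0.60 ± 0.12, adjusted p = 5.9e-06) and LATS2 by 0.08 and 0.54 (difference -0.46 ± 0.14, adjusted p = 0.00353). The fifth was WWTR1, with a difference of 2.52 ± 0.97 (adjusted p = 0.0235) on guides of very low count. In NormZ, the lines stood in the other order for LATS2 (0.37 in SNU-398 and -0.14 in Hep3B) and for NF2 (-0.36 in SNU-398 and -0.68 in Hep3B), a difference that was not tested. LATS2 lost the call without replicate 1 of SNU-398 vehicle (-0.29, adjusted p = 0.117), and WWTR1 lost it in 4 of the 8 fits that left out a library. Since control guides also differed between vehicle and T0, the part of library-wide drift in these differences was not tested.

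**Figure D3:**
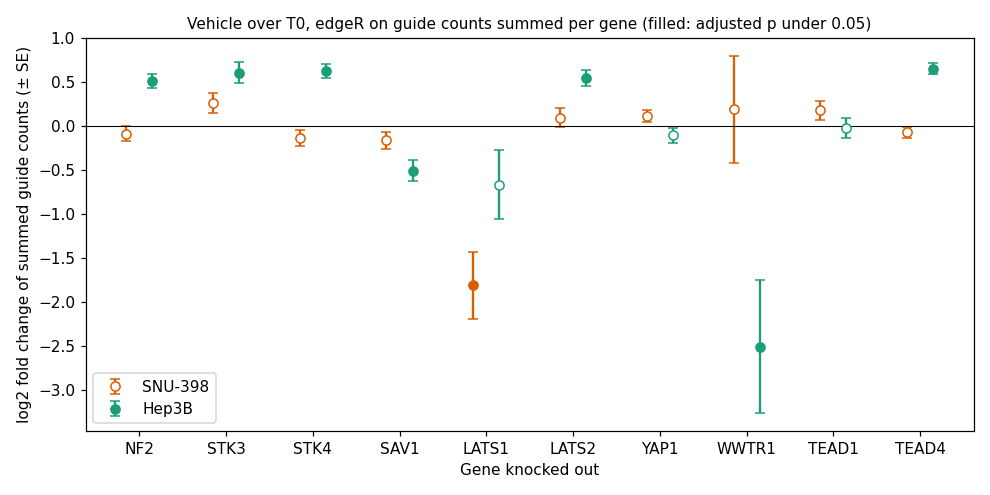
Log2 fold change of guide counts summed per gene in vehicle over T0 (y axis, with SE) for the 10 genes (x axis) in SNU-398 and Hep3B, with filled points at an adjusted p under 0.05 in edgeR. In Hep3B 7 points are filled, among them TEAD4 at 0.65 and STK4 at 0.62, and in SNU-398 the filled point is LATS1 at -1.81.

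In the RNA-seq, expression of the same genes was compared between PSTK-KO and control libraries. Whether a difference followed from loss of PSTK was not tested. Of the 10 members, 5 passed edgeR's quasi-likelihood test at an adjusted p under 0.05, with 4 higher and 1 lower in PSTK-KO, where 32.8% of 15370 genes tested passed, 15.6% higher and 17.2% lower. All changes were small, with no log2 fold change beyond 0.23. The groups did not overlap in CPM for 7 of the 10 (YAP1, WWTR1, NF2, LATS1, STK4, SAV1 and TEAD4), where they did not for 44.6% of all genes. The levels below are in FPKM, in which WWTR1 overlapped as well. In bulk RNA, fewer cells of a kind and less RNA per cell cannot be told apart.

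YAP1 (chromosome 11) stood at 33.9, 37.3 and 33.8 FPKM in PSTK-KO libraries, against 29.4, 31.9 and 28.9 FPKM in control libraries. The PSTK-KO libraries were all above the control libraries, and the log2 fold change was 0.21 ± 0.05 (SE, n = 3 each, edgeR adjusted p = 0.0022). YAP1 was called in every alternative run, including each left-out library. Its paralog WWTR1 (chromosome 3), which acts beside YAP1, stood at 15.6, 15.4 and 14.8 FPKM against 14.7, 15.4 and 14.5 FPKM and did not pass (0.03 ± 0.05, adjusted p = 0.689). Both co-activators were thus expressed, with YAP1 above WWTR1 per length in every library.

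Of the cascade genes, NF2 (chromosome 22) stood at 15.4, 14.1 and 13.9 FPKM in PSTK-KO, against 13, 11.9 and 12.1 FPKM in control (0.23 ± 0.06, edgeR adjusted p = 0.00346). LATS1 (chromosome 6) stood at 4.24, 4.44 and 4.24 FPKM against 3.61, 3.95 and 3.56 FPKM (0.21 ± 0.08, edgeR adjusted p = 0.0301), and STK4 (chromosome 20) at 10.1, 10.5 and 10.1 FPKM against 9.20, 9.37 and 8.68 FPKM (0.16 ± 0.06, edgeR adjusted p = 0.0292). All 3 were higher in PSTK-KO with no overlap between the groups, and they belong to the arm that restrains YAP1. LATS1 lost the call in DESeq2, in limma, with no filter on low counts and in 5 of the 6 fits that left out a library. STK4 lost it in limma, with no filter and in 4 of those 6 fits, and NF2 lost it without PSTK-KO replicate 1 (adjusted p = 0.0517).

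The paralogs of these kinases did not pass. LATS2 (chromosome 13) stood at 15.7, 15.4 and 13.9 FPKM in PSTK-KO against 15.6, 16.2 and 14.1 FPKM in control (-0.04 ± 0.06, edgeR adjusted p = 0.724), and STK3 (chromosome 8) at 2.82, 2.56 and 2.98 FPKM against 2.64, 2.94 and 2.89 FPKM (-0.02 ± 0.08, adjusted p = 0.855). SAV1 (chromosome 14) stood at 9.03, 8.98 and 8.90 FPKM against 9.71, 9.47 and 9.62 FPKM. Its groups did not overlap, but the difference did not pass (-0.10 ± 0.06, edgeR adjusted p = 0.249), and SAV1 shares its locus with ATL1 on the other strand, which had 97.7 counts on average against 851 for SAV1. The strand setting of the counting is not stated, so reads of overlapping genes cannot be told apart.

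TEAD1 (chromosome 11), the most abundant member per length, was lower in PSTK-KO, at 57.9, 63.6 and 60.6 FPKM, against 67.6, 74.8 and 62.1 FPKM in control (-0.17 ± 0.05, edgeR adjusted p = 0.0108). The groups overlapped, in CPM too, with the lowest control library below the highest PSTK-KO library. The call was lost in limma (adjusted p = 0.117), without control replicate 2 (-0.10, adjusted p = 0.126) and without PSTK-KO replicate 1 (adjusted p = 0.0955). TEAD4 (chromosome 12) stood at 25.8, 24.8 and 23.7 FPKM against 23.5, 22.4 and 21.4 FPKM, with no overlap, and did not pass (0.14 ± 0.07, edgeR adjusted p = 0.123). TEAD1 and TEAD4 so lay on opposite sides of 0, with 1 of them called.

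**Figure D4:**
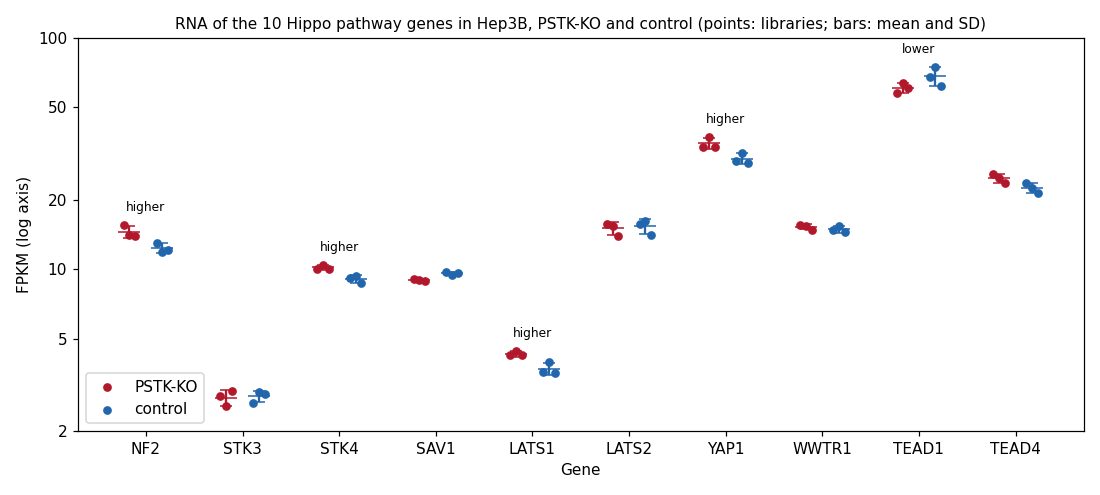
FPKM (y axis, log scale) of the 10 genes (x axis) in PSTK-KO (red, left) and control (blue, right) Hep3B libraries, with points for libraries and bars for mean and SD (n = 3 each). "Higher" and "lower" mark the 5 genes called by edgeR, with YAP1 at 33.8 to 37.3 FPKM in PSTK-KO against 28.9 to 31.9 FPKM in control.

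The output of the pathway was read from 22 targets of YAP and TAZ. Of these, 9 were higher in PSTK-KO, 6 were lower and 7 did not pass, where 15.6% of all genes tested were higher and 17.2% lower. The median log2 fold change of the targets was 0.11, where that of all genes tested was 0.00. The textbook targets did not move together. CTGF, a matricellular growth factor, was lower, at 41.2, 40.9 and 42.5 FPKM in PSTK-KO, against 74.9, 72.9 and 68.4 FPKM in control (-0.80 ± 0.05, edgeR adjusted p = 1.2e-13). ANKRD1, a nuclear ankyrin repeat protein, was higher, at 13.7, 14.7 and 16.3 FPKM against 11.3, 11.2 and 9.87 FPKM (0.46 ± 0.09, edgeR adjusted p = 0.000152). CYR61, the close relative of CTGF, stood at 266, 253 and 274 FPKM against 261, 249 and 270 FPKM and did not pass (0.02 ± 0.05, adjusted p = 0.801). AMOTL2, a target that also binds YAP1, stood at 57.4, 56.8 and 59.0 FPKM against 54.7, 53.3 and 51.6 FPKM (0.11 ± 0.05, edgeR adjusted p = 0.0627).

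Other targets showed the same split. NT5E, the ecto-nucleotidase CD73, had the largest log2 fold change of the list, at 8.51, 7.84 and 8.09 FPKM in PSTK-KO against 2.48, 2.89 and 2.71 FPKM in control (1.59 ± 0.09, edgeR adjusted p = 4.1e-15). GADD45A, a stress-induced growth arrest protein, was also higher (0.77 ± 0.08, adjusted p = 1.6e-09). IGFBP3, a binding protein of insulin-like growth factors, was lower, at 51.3, 52.3 and 51.4 FPKM against 85.7, 91.4 and 92.4 FPKM (-0.80 ± 0.05, edgeR adjusted p = 6.4e-15). The other targets that were higher were FJX1, F3, RBMS3, AXL, CCDC80 and DOCK5, with log2 fold changes of 0.28 to 0.78, and the others that were lower were FOXF2, NUAK2, MYOF and PTPN14, with -0.51 to -0.28. PTPN14 lost the call in DESeq2 and is counted again below among partners of YAP, TAZ and TEAD. LATS2, a member and a target at once, did not pass.

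Of 17 upstream activators of the cascade, 15 could be tested, and 2 were higher and 5 lower in PSTK-KO. Of all genes tested, 15.6% were higher and 17.2% lower. The median log2 fold change of the activators was -0.03. FRMD6, a membrane scaffold that works with NF2, was higher, at 4.29, 4.68 and 4.33 FPKM against 1.85, 2.03 and 2.20 FPKM (1.13 ± 0.08, edgeR adjusted p = 1.2e-12). MAP4K4, a kinase that can activate LATS beside STK3 and STK4, was higher by 0.39 ± 0.05 (adjusted p = 9.8e-08). WWC2, a relative of KIBRA, was lower (-0.42 ± 0.07, adjusted p = 8.2e-06), and so was the giant cadherin FAT4 (-0.99 ± 0.19, adjusted p = 8.0e-05), which stood at no more than 0.403 FPKM in any library. TAOK3, TAOK2 and MOB1A were lower by smaller amounts, with log2 fold changes of -0.24 to -0.17.

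Of 11 inhibitors of the cascade (subunits of the STRIPAK phosphatase and LIM proteins), 2 were higher and none was lower. Of all genes tested, 15.6% were higher and 17.2% lower. The 2 inhibitors were the LIM proteins AJUBA (0.26 ± 0.05, edgeR adjusted p = 7.7e-05) and LIMD1 (0.21 ± 0.07, adjusted p = 0.0191), which bind LATS kinases. LIMD1 lost the call in 3 of the 6 fits that left out a library. Of 9 other partners of YAP, TAZ and TEAD, 7 could be tested, with 1 higher and 3 lower, against the same shares of all genes. VGLL3, a TEAD cofactor, was higher (0.20 ± 0.06, adjusted p = 0.0166) and lost the call in 4 of the 6 fits that left out a library. AMOTL1 (-0.43 ± 0.06, adjusted p = 1.5e-06) and PTPN14 (-0.28 ± 0.07, adjusted p = 0.00231), which hold YAP1 outside the nucleus, were lower, and PTPN14 lost the call in DESeq2 (adjusted p = 0.143). PTPN14 is also counted among the targets above. VGLL4, which competes with YAP1 for TEAD, was lower as well (-0.32 ± 0.07, adjusted p = 0.00124). VGLL1 had no count in any library.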

How the data were processed

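CRISPR knockout screens with the TKOv3 guide library (32 libraries) and RNA-seq (6 libraries) were analysed from the deposited tables. For the screens, the authors deposited counts of reads per guide made with Bowtie2, with no normalization. For RNA-seq, reads were aligned in HISAT2 2.0.5 and assigned to genes by featureCounts 1.5.0-p3, per the labels. The authors deposited the resulting gene counts and FPKM, which scales them by gene length and library total. The genome named in the labels is mm9, although gene identifiers and positions are human. Guide positions are not printed, since their build is not given in the sources used here. Columns with the authors' group means, fold changes and p-values were not used.

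NormZ followed the steps of DrugZ: scaling to a total of 1e+07, a pseudocount of 5, a spread estimated over windows of 1000 guides, libraries matched by number, and a one-sided p under 0.01. Guides, sums over guides and RNA were tested in edgeR 4.0.16 (R 4.3.3) by quasi-likelihood with TMM scaling, filterByExpr (minimum count 10) and a Benjamini-Hochberg adjusted p under 0.05 over all features. SNU-398 Erastin replicate 2 was left out. Residual degrees of freedom were 8 in Hep3B, 7 in SNU-398 and 4 for RNA. DESeq2 1.42.0, limma 3.58.1 on log2(FPKM + 1), RLE scaling, no filter, a replicate block and leaving out each library were tried as alternatives. The scripts were tested on simulated data. NormZ adjusted p-values are Benjamini-Hochberg values over all genes of a screen. The members and lists were chosen with earlier results of these data known. Named by rule were the members, PSTK, CYR61, CTGF, ANKRD1, AMOTL2 and the 2 to 4 genes of each list with the smallest adjusted p in the RNA. Other genes named from the lists were chosen after their values were seen.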

Additional observations from a re-analysis of the deposited data

Results flagged for a closer look

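The change between T0 and vehicle differed between the lines for 5 members, where it did for 52.6% of all genes. That count does not set the members apart from other genes. The test was made in edgeR on the difference of the log2 fold changes (SNU-398 minus Hep3B). The difference was -0.46 for LATS2, -0.60 for NF2, -0.77 for STK4 and -0.73 for TEAD4, each with a sum that was higher after 14 days in Hep3B and did not pass in SNU-398. In NormZ the lines stood the other way for LATS2 (0.37 in SNU-398 and -0.14 in Hep3B) and NF2 (-0.36 in SNU-398 and -0.68 in Hep3B). The difference of the sums was 2.52 for WWTR1, whose guides had very low counts, and that call was lost in 4 of the 8 fits without a library and with SNU-398 Erastin replicate 2 included. Control guides passed between vehicle and T0 as well, 58 of 116 in SNU-398 and 46 of 84 in Hep3B, and their part in these differences was not tested.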

How the results depend on the processing

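The number of members past the NormZ threshold in SNU-398 was 1 and became 0 with guides of at least 30 vehicle counts. With SNU-398 Erastin replicate 2 included, 46 member guides were called between inhibitors and vehicle in place of 92, and 3 between vehicle and T0 in place of 10. In the RNA, 5 members were called, against 3 with no filter on low counts and 2 in limma. In limma, 1 inhibitor of the cascade was called in place of 2, and 2 partners in place of 4. Leaving out a library gave 1 to 4 members in the RNA (1 without PSTK-KO replicate 1, and 3 without PSTK-KO replicate 2 or 3 or control replicate 3), 1 to 2 inhibitors of the cascade, 0 to 1 members between vehicle and T0 in SNU-398 sums and 6 to 8 guides there. The cause was not tested. Of the counts, 131 comparisons with an alternative stayed within 1.5 times and 17 did not, and of single values 591 kept direction and side of the threshold, 46 lost and 11 gained the call, and 0 turned round. The use of T0 as reference was chosen after seeing the data and ended all 4 NormZ calls.

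Same-numbered libraries did not deviate together (correlations of -0.003 to 0.099 in the RNA and medians of 0.002 and 0.004 in the screens), so the edgeR fits did not take the numbers as pairs. NormZ matches libraries by number, as DrugZ does, and against the mean of the vehicle libraries in place of matching it called 3 member pairs in Hep3B and 1 in SNU-398, as with matching. With the replicate block, 97 member guides were called in Hep3B and 88 in SNU-398. In the RNA it called 5 members, 17 targets and 9 upstream activators, where 5547 of 15370 genes tested passed. With 2 libraries per group in the screens, single guides under 30 counts limit what can be detected.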

Other observations

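Summed markers of several cell types moved with genotype in the RNA, but those of blood cells did not. Among single genes tested, 44.6% had groups that did not overlap in CPM. The summed level of 5 biliary markers was 535 to 554 CPM in PSTK-KO and 426 to 470 CPM in control, that of 6 fibroblast markers 40.8 to 44.9 CPM against 57.2 to 65.3 CPM, and that of 9 hepatocyte markers 15.1 to 19.1 CPM against 26.2 to 31.1 CPM. The 4 endothelial markers summed to 8.02 to 10.6 CPM against 13.1 to 13.5 CPM. The 5 blood markers overlapped, at 0.779 to 1.74 CPM against 1.31 to 1.89 CPM. Too low to test were 2 biliary, 3 fibroblast, 7 hepatocyte, 2 endothelial and 4 blood markers, so few genes carry each sum. ALB had 1, 0 and 0 counts in PSTK-KO and 37, 24 and 24 in control. The part of these markers in the changes of the Hippo genes was not tested.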
